A study of Mus musculus with 6 samples.

Results

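The response of cultured kidney tubule cells to palmitate was measured as the difference in miRNA level between 1 array of palmitate-treated cells and 1 array of control cells. These were 2 of the 6 arrays of the study, chosen by their sample titles and not by any measured value, and every mouse miRNA on the array was included. The cells were mProx24, a line of mouse proximal tubular cells from the C57B6 strain. The palmitate culture was at 20% oxygen and received 150 µM palmitate, carried on 0.15% bovine serum albumin, for 9 h. The control culture was also at 20% oxygen and its label names only PBS. Both labels carry the same medium code, NG. Albumin is given in the labels only where palmitate is, so an effect of palmitate and an effect of its carrier cannot be told apart. The other 4 arrays were used to set levels side by side. They also entered the choice of the probes for scaling and of the probe for each miRNA. They were labelled high glucose (20% oxygen), hypoxia (1% oxygen for 12 h), triple stimuli and triple stimuli with rapamycin. Both triple arrays had 1% oxygen for 12 h, high glucose, and 150 µM palmitate with 0.15% albumin for 9 h. Rapamycin was at 0.4 µg/ml, with a 12 h pretreatment. Each array took 100 ng of total RNA from 1 line, and nothing in the labels describes a second culture of any condition.

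Of the 1247 miRNAs on the array, 155 were detected on both the palmitate and the control array. Another 7 were detected on the palmitate array only and 9 on the control array only, and 1076 were detected on neither. A miRNA counted as detected where at least 0.5 of the unflagged spots of any of its probes were well above background. The arrays were alike in quality, with 162 miRNAs detected on the palmitate array and 164 on the control array. Spots well above background made up 11.4% of the miRNA spots on the palmitate array and 11.5% on the control array. Spots of the same detected probe varied with a median CV of 8.71% on the palmitate array and 10.75% on the control array. With 1 array per condition there is no replicate spread, no p-value can be given, and precision is limited by that number throughout.

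The deposited records disagree on which array is palmitate. In the authors' deposited value table, the palmitate column equalled the scanner values deposited under high glucose (within 0.1% after 1 scaling factor) for 70.6% of the miRNAs compared, and its own scanner values for 0%. The high glucose column equalled the scanner values deposited under palmitate for 70.9%, and its own for 0%. The results below follow the scanner data as deposited, so "the palmitate array" is the array whose scanner data were deposited under that title. Values of the array deposited as high glucose are given beside them. Which record carries the right label was not settled.

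MiRNAs are short RNAs cut from hairpin transcripts. Either strand of the hairpin, the 5p or the 3p arm, can be loaded into an Argonaute protein, and the seed, bases 2 to 8 of the mature RNA, does most of the pairing with target mRNAs, which are then repressed. MiRNAs with the same seed form families with overlapping targets, and neighbouring hairpins are often cut from 1 primary transcript. Palmitate is a saturated fatty acid. In proximal tubule cells, which take up albumin-bound fatty acids and burn them as a main fuel, an excess of saturated fatty acid is known to cause endoplasmic reticulum stress, inflammation and cell death.

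The sequences at the centre of the comparison are shown with the seed in capitals, 5′ to 3′, as RefSeq gives them on GRCm38.p6. The first set holds 3 of the 4 miRNAs that were lower on the palmitate array, together with miR-132-3p, the partner of miR-212-3p in the same cluster and with the same seed.
miR-6366: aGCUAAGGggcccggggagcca
miR-5100: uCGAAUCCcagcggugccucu
miR-212-3p: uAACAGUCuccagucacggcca
miR-132-3p: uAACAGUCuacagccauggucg

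The next set holds miRNAs on the low side that did not reach the 1.5-fold threshold, of which miR-3968 and miR-3963 are shown because they carry, with miR-5100, the letters AUCCC, and miR-652-5p because its other arm was also measured.
miR-3968: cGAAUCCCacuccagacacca
miR-3963: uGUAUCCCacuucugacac
miR-652-5p: cAACCCUAggagggggugccauuc

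The last set holds the 2 miRNAs of the high side for which the palmitate array was the highest of all 6.
miR-3082-5p: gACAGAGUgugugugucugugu
miR-1187: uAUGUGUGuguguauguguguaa

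The palmitate and control arrays were close across most miRNAs, and which direction held more of the differences depended on the scaling. Levels are given as scaled intensity, the probe intensity after each array was set to a common 75th percentile, on the scale of the control array. Levels of different miRNAs come from different probes and cannot be ranked against each other. Over the 155 miRNAs the median log2 difference, palmitate minus control, was -0.03, with quartiles of -0.12 and 0.04 and a range of -0.81 to 0.53. The median was 0.15 when each array was scaled over all its probes, a setting that moves every miRNA up. At the main scaling the difference was above 0 for 56 miRNAs and below 0 for 99. It was within 1.1-fold for 105 miRNAs (67.7%), within 1.2-fold for 129 (83.2%) and within 1.5-fold for 151 (97.4%). At 1.3-fold or more, 3 miRNAs were higher and 10 were lower with palmitate. Among the 78 brighter miRNAs the differences had a robust SD of 0.09, and among the 77 dimmer ones 0.14. Each array was also set beside the same control array, which all such differences share. The robust SD was 0.12 for palmitate, 0.17 for high glucose, 0.15 for hypoxia, 0.24 for triple stimuli and 0.19 for triple stimuli with rapamycin.

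For a call, a miRNA had to be detected on the palmitate and control arrays, with a gap of 1.5-fold or more that was also over 2 spot SE, the standard error from the scatter of its spots. This error holds no variation between cultures or arrays. By this rule 0 miRNAs were called higher on the palmitate array, or 0%, and 4 were called lower, or 2.58% of the 155. The 4 were miR-6366, miR-5097, miR-212-3p and miR-5100. The split was 3 higher and 2 lower with scaling over all probes, 2 higher and 2 lower with quantile normalisation, 2 higher and 4 lower with no scaling or median scaling, and 3 higher and 3 lower with the software's summed signal. On the array deposited as high glucose, 11 miRNAs were called higher than in the control (6.79% of 162) and 0 lower. None of the 4 was called on that array. With the labels read as in the value table, the palmitate result would therefore be 11 higher and 0 lower.

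**Figure D1:**
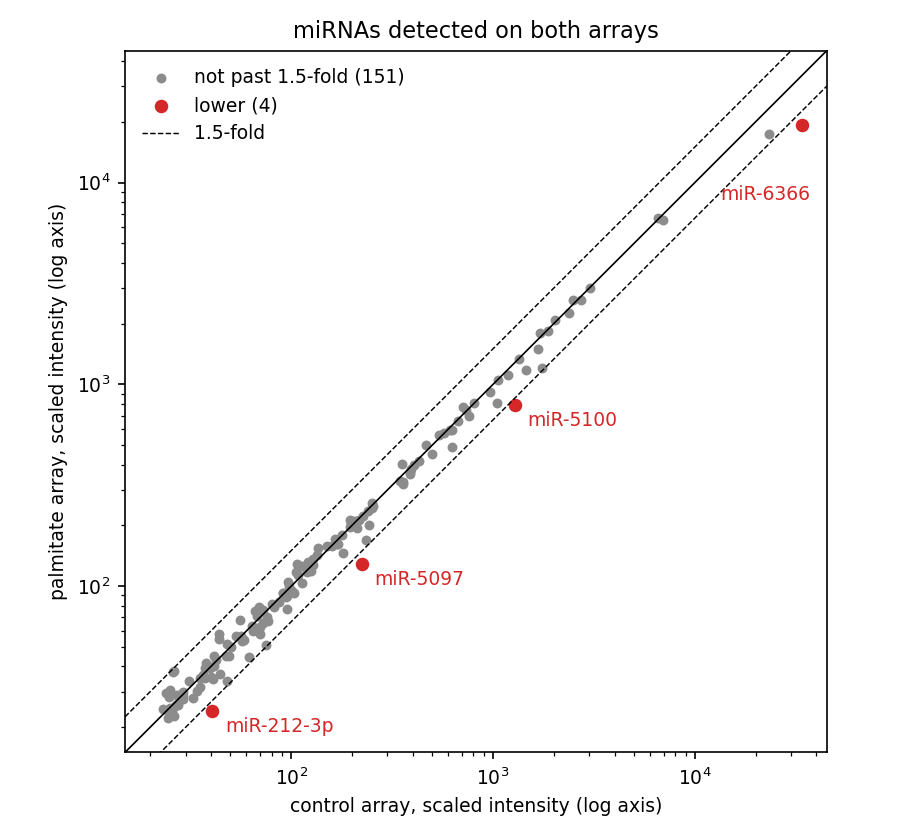
Scaled intensity of the 155 miRNAs detected on both arrays, with the palmitate array on the vertical axis and the control array on the horizontal axis, both on log scales. The solid line marks equal levels and the dashed lines 1.5-fold; 4 miRNAs (red) lie below the lower dashed line and 0 above the upper one.

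MiR-6366 had a scaled intensity of 19326.1 ± 57.8 on the palmitate array and 33849.6 ± 369 on the control array (spot SE, 15 and 16 spots). The log2 difference was -0.81 (spot SE 0.02), or 1.75-fold lower with palmitate. Its spots ran from 18897.6 to 19746.2 on the palmitate array and from 31370.4 to 36003.1 on the control array, so they did not overlap. A second probe for the same miRNA gave -0.80. On the remaining arrays it had 31344.4 with high glucose, 29499.3 with hypoxia, 30896.9 with triple stimuli and 23963 with triple stimuli and rapamycin. The palmitate array was thus the lowest of the 6. The mature RNA maps to the minus strand at chr16:18165093-18165114, and the annotation places no gene across it. With quantile normalisation the call was lost and its difference was 0, because its probe held the same top rank on both arrays.

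MiR-5100 was 789 ± 5.84 on the palmitate array and 1284 ± 15.1 on the control array (spot SE, 20 spots each), a log2 difference of -0.70 (spot SE 0.02). Its spots lay between 743 and 825 with palmitate and between 1119 and 1383 in the control, and a second probe gave -0.67. The call was lost with scaling over all probes (-0.51) and with quantile normalisation (-0.58). It was 1151 with high glucose, 1572 with hypoxia, 1574 with triple stimuli and 997 with triple stimuli and rapamycin. Palmitate was again the lowest array. The triple stimuli array, whose cells also received palmitate, was above the control and level with the hypoxia array. The sequence lies on the plus strand at chr11:60728698-60728718, within the gene Mief2, which encodes a mitochondrial outer membrane protein that recruits the fission enzyme DRP1.

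MiR-5097 was 129 ± 2.17 on the palmitate array and 223 ± 5.29 on the control array (spot SE, 17 and 19 spots), a log2 difference of -0.79 (spot SE 0.04). The spots did not overlap, running from 117 to 146 with palmitate and from 169 to 261 in the control, and a second probe gave -0.91. Its levels were 179 with high glucose, 255 with hypoxia, 243 with triple stimuli and 184 with triple stimuli and rapamycin. As for miR-5100, the array of palmitate alone was the lowest while the triple stimuli array was above the control.

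MiR-212-3p shares a primary transcript with miR-132, which the transcription factor CREB induces. It was 23.9 ± 0.839 on the palmitate array and 40.7 ± 1.62 on the control array (spot SE, 18 spots each), a log2 difference of -0.76 (spot SE 0.08). This value is close to the limit of detection, since the lowest detected signal on the palmitate array was 20.3. Its spots overlapped, with 18.6 to 32.2 on the palmitate array and 27.3 to 52.8 on the control array, and its second probe was not detected on either. Odd-numbered spots gave -0.90 and even-numbered spots -0.64. The call was lost with normexp background correction (-0.32), with scaling over all probes (-0.57) and with the software's summed signal (-0.62). Its levels were 33.3 with high glucose, 38.5 with hypoxia, 38.0 with triple stimuli and 27.8 with triple stimuli and rapamycin, so palmitate was the lowest array here too. The cluster lies on the plus strand of chromosome 11, with miR-212-3p at chr11:75173443-75173464 and miR-132-3p at chr11:75173723-75173744. MiR-132-3p was not well above background on either array, at 10.6 with palmitate and 14.7 in the control, so its difference could not be given.

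On the array deposited as high glucose, the log2 difference from the control was -0.11 for miR-6366, -0.16 for miR-5100, -0.32 for miR-5097 and -0.29 for miR-212-3p. Both sets of differences subtract the same control array.

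**Figure D2:**
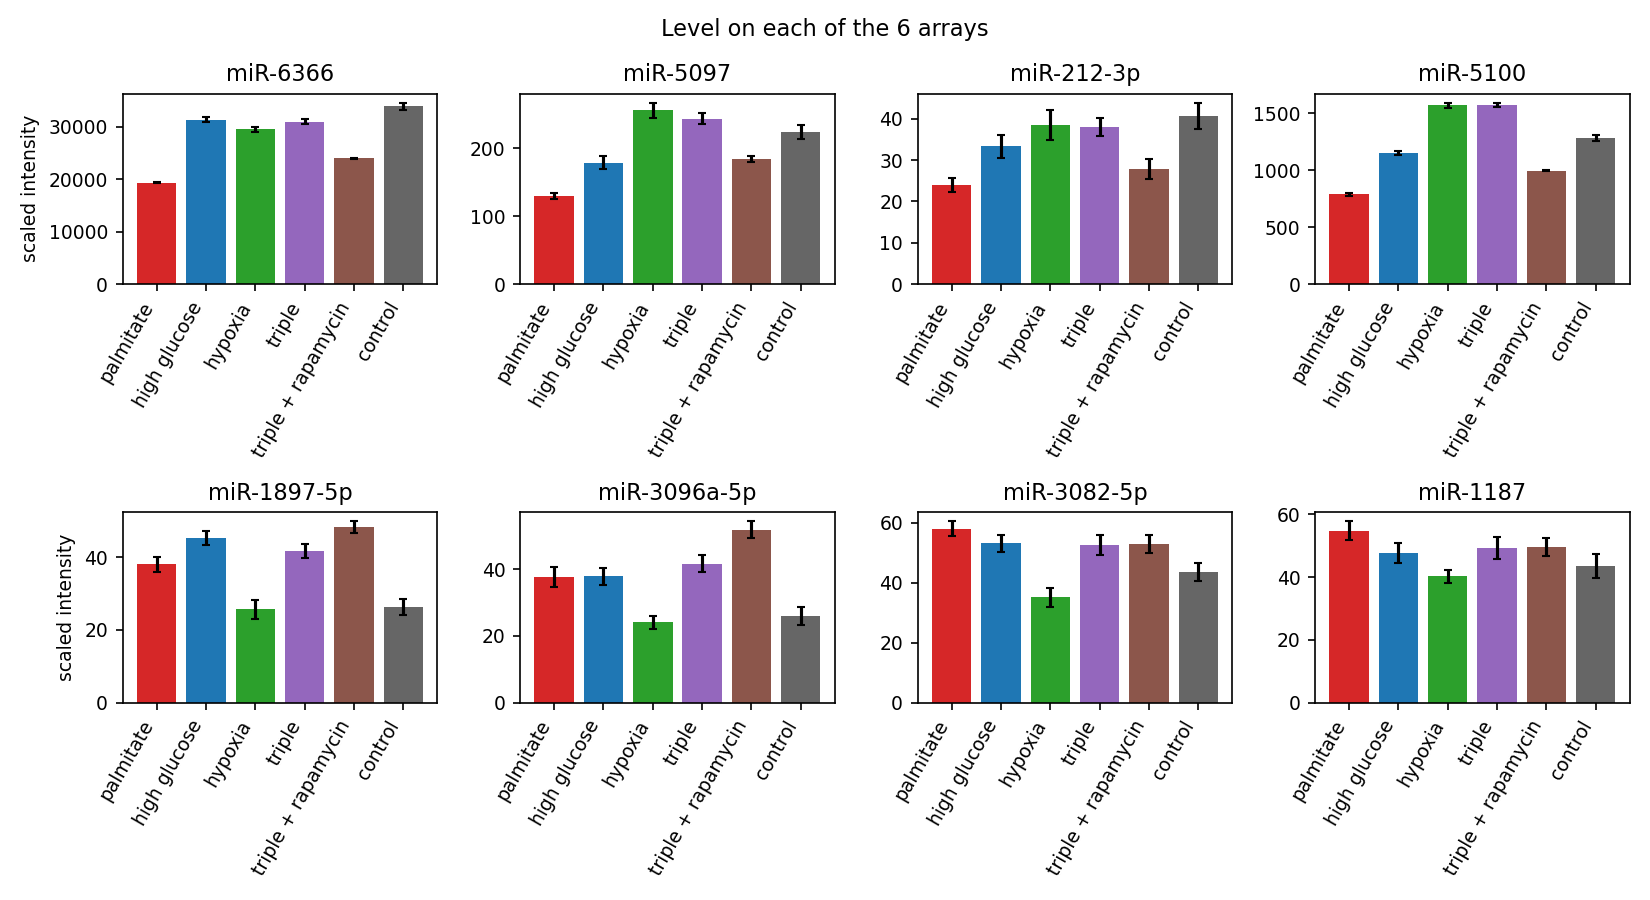
Scaled intensity on each of the 6 arrays, palmitate first and control last, for miRNAs named in the text; each panel has its own vertical axis and error bars are 2 spot SE, within arrays only. For miR-6366, miR-5097, miR-212-3p and miR-5100 the palmitate array is the lowest of the 6.

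Below the threshold, the next lowest miRNAs were miR-652-5p, miR-3968, miR-6368, miR-690, miR-202-3p and miR-3963. MiR-652-5p, within Tmem164 (chrX:142739020-142739043, plus strand), was 50.9 ± 1.39 with palmitate and 75.1 ± 1.45 in the control (spot SE), a log2 difference of -0.56 (spot SE 0.05). MiR-3968, within Trim80 (chr11:115447969-115447989, minus strand), was 1211 ± 13.3 with palmitate and 1754 ± 35.1 in the control, a difference of -0.53. Neither set of spots overlapped between the arrays. The other 4 lay between -0.51 and -0.44, with miR-3963 at 17316 on the palmitate array and 23427.8 on the control array. MiR-6368 was below the control with palmitate (33.8 against 48.0) and above it with high glucose (69.2). The spots of both arrays did not overlap for 7 of the 10 lowest miRNAs, and did overlap for miR-212-3p, miR-690 and miR-202-3p. The second probes of the 6 gave -0.36 to -0.54, so each was below 0 as well.

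For 7 of the 10 lowest miRNAs the palmitate array was the lowest of all 6, which the choice of low values favours. The exceptions were miR-690, miR-202-3p and miR-3963, each of which was lowest with triple stimuli and rapamycin. The palmitate array was also set against the median of the 4 other treated arrays, without the control, on the log2 scale. Among the 7 the difference ran from -0.79 for miR-5100 to -0.47 for miR-652-5p, with miR-6366 at -0.64 and miR-212-3p at -0.57. For the exceptions it was smaller than against the control, at -0.19 for miR-690, -0.07 for miR-202-3p and -0.22 for miR-3963. These miRNAs were chosen for low values on the same palmitate array, which favours a low result here too. Among 154 miRNAs found on each of the 6 arrays, the palmitate array was the lowest for 23 (14.9%) and the highest for 13 (8.44%). The control array was the lowest for 10 (6.49%) and the highest for 42 (27.3%).

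The 10 highest differences were smaller, and none reached 1.5-fold. MiR-1897-5p was 38.0 ± 1.03 with palmitate and 26.3 ± 1.14 in the control (spot SE), a log2 difference of 0.53 (spot SE 0.07). MiR-3096a-5p was 37.6 ± 1.52 with palmitate and 26.0 ± 1.32 in the control, also 0.53 (spot SE 0.09). Both were also above the control with high glucose, at 45.3 and 37.9, and highest with triple stimuli and rapamycin, at 48.3 and 51.9. Both control signals were near the limit of detection, since the lowest detected signal on the control array was 19.8. Over the settings that keep the array labels, miR-1897-5p ran from 0.11 to 0.72 and miR-3096a-5p from 0.09 to 0.72.

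MiR-3082-5p was 58.1 ± 1.28 on the palmitate array and 43.6 ± 1.45 on the control array (spot SE), a difference of 0.41 (spot SE 0.06). MiR-1187 was 54.7 ± 1.55 on the palmitate array and 43.6 ± 1.89 on the control array, a difference of 0.33. For these 2 of the 10, the palmitate array was the highest of the 6, which the choice of high values favours. The second probe of miR-3082-5p was not detected on either array, and that of miR-1187 gave 0.29. Over the settings that keep the array labels, miR-3082-5p ran from 0.12 to 0.85 and miR-1187 from 0.10 to 0.52. The remaining arrays lay between 35.1 and 53.2 for miR-3082-5p and between 40.2 and 49.6 for miR-1187.

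MiR-301a-3p, within Ska2, was 29.5 with palmitate and 24.005 in the control, a difference of 0.30 (spot SE 0.11). MiR-7a-5p, known for its abundance in endocrine cells of the pancreas, was 129 with palmitate and 107 in the control, a difference of 0.28 (spot SE 0.06), and it was 132 with high glucose. The spots of the palmitate and control arrays overlapped for all 10 of the highest miRNAs. Second probes were not detected on either array for miR-301a-3p, miR-3096b-5p and miR-467f, and only with palmitate for miR-1897-5p and miR-3096a-5p. Those of miR-7a-5p, miR-211-3p and miR-1895 gave 0.17, 0.15 and 0.05. The control array was the fifth or sixth highest of the 6 for 9 of them, and it was the highest of the 6 for 5 of the 10 lowest miRNAs (miR-6366, miR-212-3p, miR-652-5p, miR-690 and miR-202-3p). Choosing the extremes of palmitate minus control favours both counts.

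**Figure D3:**
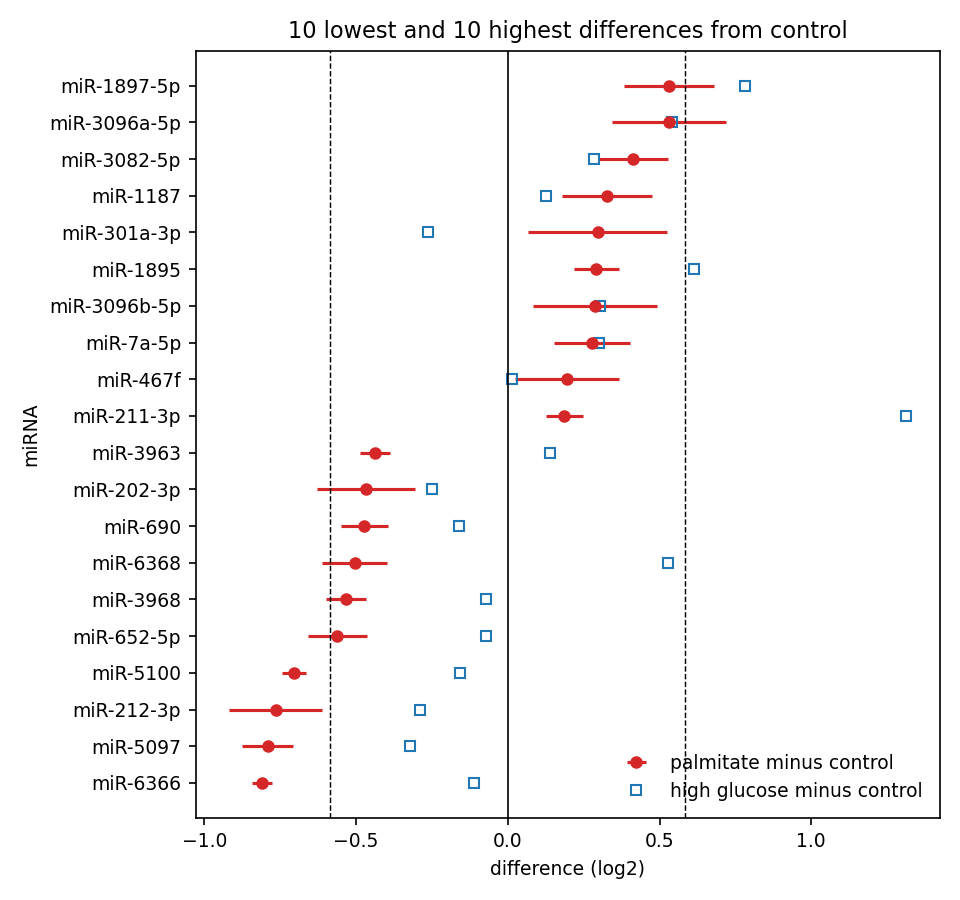
Log2 differences from the control array for the 10 highest and the 10 lowest miRNAs of palmitate minus control, shown for the palmitate array and for the array deposited as high glucose; bars are 2 spot SE, within arrays only. The palmitate differences of these miRNAs run from -0.81 to 0.53 and the high glucose differences from -0.32 to 1.31; both subtract the same control array.

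Arms of 1 hairpin were compared where both were detected on both arrays, which held for 9 hairpins matched through RefSeq's table. Among these 9, miR-652 stood widest apart, with the 5p arm at -0.56 and the 3p arm at -0.09 (94.7 with palmitate and 100.5 in the control). Its second probes lay closer, at -0.52 for the 5p arm and -0.20 for the 3p arm. Among the other 8, the 5p minus 3p gap ran from -0.26 for miR-17 to 0.12 for miR-22. MiR-1897, matched by name only, had its 5p arm at 0.53 and its 3p arm at 0.10. MiR-3096b was also matched by name only. Its 5p arm was 30.5 with palmitate and 25.04 in the control, a difference of 0.29, and its 3p arm was 809 with palmitate and 1048 in the control, a difference of -0.37.

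Letters shared among the low miRNAs were searched after their values were seen, so what follows is a description only. The mature sequence was in RefSeq's table for 129 of the 155 miRNAs. AUCCC, read on the mature strand, was in 5 of the 129 (3.88%), against 1.08% of the 1017 miRNAs of the array with a sequence. Its 5 carriers had a median of -0.44, against -0.03 for those without it. They were miR-5100 (-0.70), miR-3968 (-0.53), miR-3963 (-0.44), miR-324-5p (-0.10) and miR-188-5p (0.11). The letters lie within the seed of miR-3968, miR-3963, miR-324-5p and miR-188-5p and run 1 base past it in miR-5100, so carriers with the letters in the seed lay at both low values and values near or above 0. AAUCC, which overlaps AUCCC in miR-5100 and miR-3968, was in 6 of the 129 (4.65%, against 1.38% of the array), with a median of -0.21. UGUGUG was in 5 (3.88%, against 1.87% of the array), with a median of 0.15 and a range of -0.16 for let-7b-5p to 0.41 for miR-3082-5p.

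Base composition was also set beside the differences. The median was 0.04 for the 22 miRNAs with less than 40% G and C, -0.07 for 45 between 40% and 50%, -0.03 for 28 between 50% and 60%, and -0.03 for the 34 at 60% or more. On the array deposited as high glucose the same 34 had a median of 0.17 against the control.

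Among miRNAs with known links to lipid and glucose metabolism, 6 of 12 were detected on both arrays, and 0 were called (background 0% higher and 2.58% lower). Their median was -0.06, beside -0.03 over all miRNAs. MiR-7a-5p was the highest at 0.28. MiR-103-3p, which with miR-107-3p restrains insulin sensitivity in liver and fat of mice, was 321 with palmitate and 358 in the control, a difference of -0.16. MiR-107-3p was -0.05, and miR-27a-3p and miR-27b-3p, repressors of adipocyte formation, were -0.03 and -0.11. MiR-33-5p, encoded in an intron of Srebf2 and a repressor of cholesterol export, was not detected on either array, nor was liver miR-122-5p. MiR-378a-3p, from an intron of Ppargc1b, was detected in the control only, at 21.3 with palmitate and 23.7 in the control. This is a ratio of 1.11-fold between signals near background.

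Of the 16 miRNAs with links to endoplasmic reticulum stress, 8 were detected on both arrays and 0 were called (background 0% higher and 2.58% lower). The median was -0.03, and the values ran from -0.17 for miR-17-5p to 0.03 for miR-125b-5p. The miR-106b/25 cluster, which lies in an intron of Mcm7 and is reported to fall under this stress in mouse fibroblasts, gave -0.02 for miR-106b-5p, -0.04 for miR-93-5p and 0.01 for miR-25-3p. MiR-708-5p and miR-211-5p, which the stress factors CHOP and PERK are known to induce in mouse cells, were not detected on either array.

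The inflammation list had 4 of 9 members detected on both arrays, of which 1, miR-212-3p, was called lower (background 2.58%), and a median of -0.10 beside -0.03 over all miRNAs. MiR-155-5p, made from Mir155hg in activated immune cells, was 172 with palmitate and 165 in the control, a difference of 0.06 (spot SE 0.03). MiR-31-5p was 693 with palmitate and 758 in the control, a difference of -0.13. MiR-146a-5p, a feedback target of NF-kB, was not detected on either array. MiR-21a-5p, which rises in many forms of kidney injury and lies within Vmp1, was 2259 ± 13.8 with palmitate and 2382 ± 36.9 in the control (spot SE), a difference of -0.08, and its spots overlapped.

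Of 10 miRNAs tied to p53 and apoptosis, 4 were detected on both arrays, with 0 called (background 0% higher and 2.58% lower) and a median of -0.05. The direct p53 target miR-34a-5p was 416 with palmitate and 430.3 in the control, a difference of -0.05 (spot SE 0.03). The renal fibrosis list had 5 of 12 detected, with 0 called against the same background and a median of 0.00. Its miR-29 members, which repress collagens, had differences of 0.00 (miR-29a-3p), 0.03 (miR-29b-3p) and 0.12 (miR-29c-3p, 105 with palmitate and 96.4 in the control).

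The kidney list checks the label of the cells, and 7 of its 12 members were detected on both arrays. These were miR-10a-5p, miR-10b-5p and the 5 miR-30 members. MiR-10a-5p was 501 with palmitate and 463 in the control (0.11), and miR-10b-5p was 214 with palmitate and 195 in the control (0.13). MiR-30e-5p was the lowest of the list at -0.20. The list's other members, miR-204-5p, miR-215-5p, miR-192-5p, miR-194-5p and miR-146b-5p, were not detected on either array. Neither was any of the 7 miR-200 family members, which mark epithelium in general. The defining miRNAs of the labelled cell type were therefore partly absent in both conditions. Markers of blood (5 on the array), endothelium (2) and fibroblasts or smooth muscle (5) were not detected on either array. Of 6 muscle, neuron and hepatocyte markers, miR-206-3p alone was detected, at 88.2 with palmitate and 94.3 in the control. In total RNA from a culture, fewer cells making a miRNA and less of it per cell cannot be told apart.

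The hypoxia miRNA miR-210-3p was not detected on the palmitate array (18.5) or the control array (21.6). On the array deposited as high glucose, also at 20% oxygen, it counted as detected at 21.1, a signal no higher than that of the control. Its signals at 20% oxygen thus lay near the limit of detection. Of 14 low-oxygen responsive miRNAs, 11 were detected on both arrays, 0 were called (background 0% higher and 2.58% lower) and the median was -0.06. The 4 miRNAs listed as fragments of the ribosomal RNA precursor gave -0.07 to -0.13, with 0 called against the same background.

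Families with a shared seed differed little. All 9 let-7 miRNAs (seed GAGGUAG), repressors of growth genes such as Hmga2, were detected on both arrays, with a median of -0.03 and values from -0.16 for let-7b-5p to 0.07 for let-7a-5p. The 5 with seed AAAGUGC, of the MYC-induced miR-17 family, ran from -0.17 for miR-17-5p to -0.02 for miR-106b-5p. The 4 of miR-15/16 (AGCAGCA), which repress Bcl2, ran from -0.15 for miR-15a-5p to 0.11 for miR-15b-5p. The 3 matched miR-30 miRNAs (GUAAACA) ran from -0.20 to 0.01. None of these families held a called miRNA (background 0% higher and 2.58% lower). The miR-23/27/24 list gave -0.11 to -0.02, and miR-99/100 and miR-125 gave -0.07 to 0.03 for 4 of 5. In the miR-181 list 1 of 4 was detected on both arrays, miR-181b-5p at -0.16 (spot SE 0.09).

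Genomic clusters, counted as detected miRNAs within 10000 bases on GRCm38.p6, numbered 17, and their medians lay between -0.11 and 0.07. A mature miRNA with several genes was counted at each. The miR-17/92 cluster on chromosome 14, with 7 detected miRNAs, ran from -0.17 for miR-17-5p to 0.13 for miR-19a-3p with a median of -0.00.

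**Figure D4:**
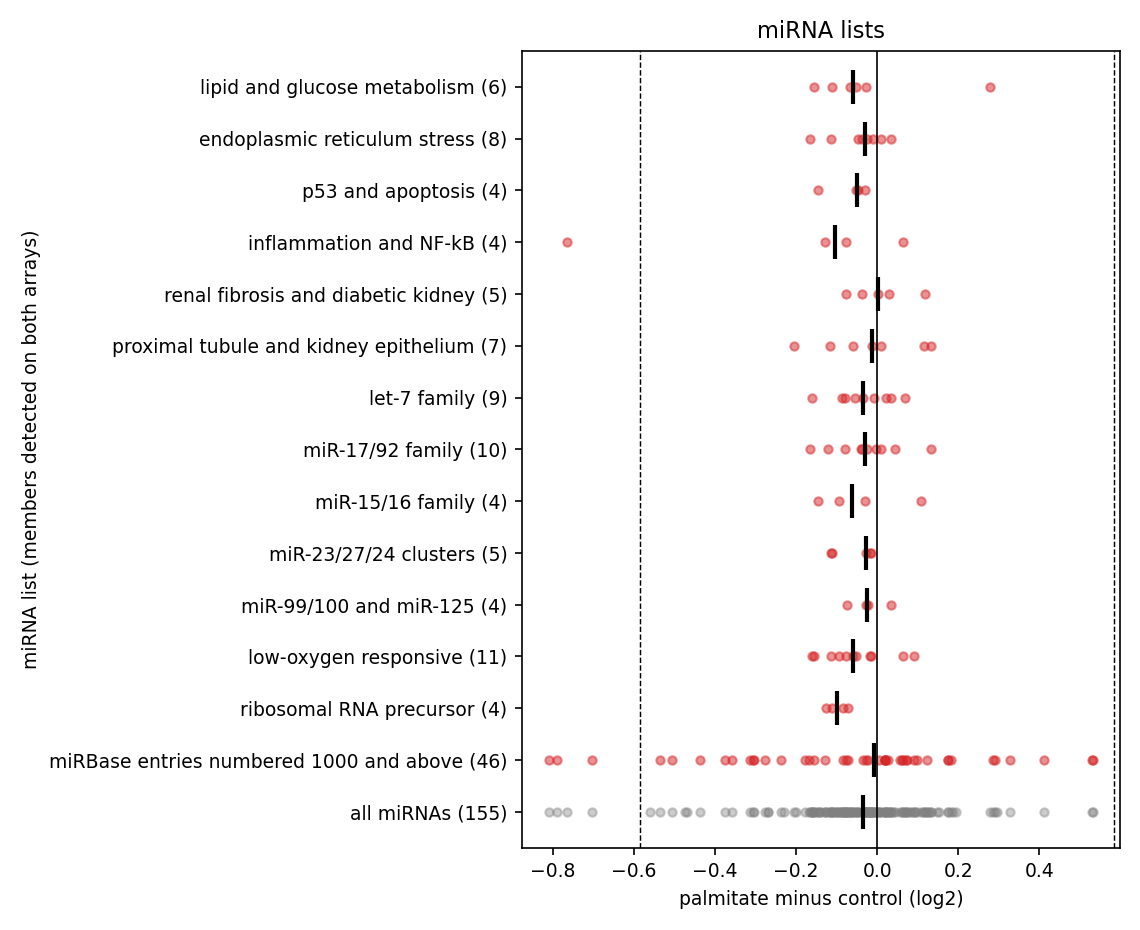
Palmitate minus control (log2 scaled intensity) for each miRNA detected on both arrays, grouped by list, with black bars at the medians and dashed lines at 1.5-fold. In the lists of roles and families every point lies between -0.20 and 0.28 except miR-212-3p at -0.76, while entries numbered 1000 and above span -0.81 to 0.53.

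MiRBase numbers grow with the date of entry, and 3 of the 4 called miRNAs are late entries. Of the 46 miRNAs numbered 1000 or higher, 0 were called higher and 3 lower (background 0% and 2.58%), with 23 above 0, 23 below 0 and a range of -0.81 to 0.53. Of the 109 with lower numbers, 1 was called lower (background 2.58%), 33 were above 0 and 76 below, and the range was -0.76 to 0.30.

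Differences for miRNAs detected on 1 array are given as bounds against the lowest detected signal of the dimmer array. Where the dimmer signal lay above that, they are plain ratios of signals near background. The largest of the 9 found in the control only was miR-1839-3p, at least 1.42-fold lower with palmitate (19.3 with palmitate and 28.8 in the control). Next came miR-3085-3p and miR-466h-3p, lower by ratios of 1.25-fold and 1.21-fold. The largest of the 7 found with palmitate only was miR-5117-5p, at least 1.21-fold higher (23.9 with palmitate and 18.4 in the control). Next came miR-28a-5p, at least 1.11-fold higher, and miR-500-3p, higher by a ratio of 1.098-fold. No bound or ratio reached 1.5-fold. For let-7b-3p (0.978) and miR-298-5p (0.959) the value was below 1, so it gave no direction. Where several probes of 1 miRNA were detected on both arrays (119 miRNAs), their differences spanned a median of 0.06 and at most 0.41 on the log2 scale. For 26 of the 119 the probes differed in sign. Among them were miR-155-5p (0.06 and -0.09), let-7a-5p (0.07 and -0.02), miR-29c-3p (0.12 and -0.03) and miR-15b-5p (0.11 and -0.01). The direction given above for these is that of the brightest probe.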

How the data were processed

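Per the file headers, arrays were quantified with Agilent Feature Extraction 10.7.3.1, and the deposited spot intensity values are background-subtracted and not normalised between arrays. The authors' deposited value table holds a linear signal per miRNA that is not centred. The sources used here do not state how it was scaled. Its column medians are 0.00341 for palmitate, 0.00444 for high glucose and 0.00475 for the control, each equal to the column's floor and so not a typical signal. Groups were taken from sample titles.

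Unflagged spots of a probe were averaged. Scaling used the 75th percentile of the 281 probes found on every array (318 on the palmitate array and 295 on the control array). Values were floored at each array's lowest detected signal and moved to log2. The probe brightest on average over all 6 arrays stood for each miRNA. No test was possible with 1 array a group. Alternatives changed the scaling, background (normexp in limma 3.58.1, R 4.3.3), probe summary, spots, detection, fold limit and labels. Tables were computed with Python 3.11.15 and pandas 2.3.3.

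Named miRNAs were all those called, the 10 highest and 10 lowest differences, the 3 largest bounds or ratios on each side, list members and seed groups. The miRNAs and the 19 lists were chosen with earlier results of these data known.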

Additional observations from a re-analysis of the deposited data

How the results depend on the processing

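The count of miRNAs called higher with palmitate, 0 as reported, was 3 when scaled over all probes, 2 with median scaling, 2 with no scaling, 2 with quantile normalisation, 3 with the software's summed signal and 2 on odd-numbered spots. The count called lower, 4 as reported, was 2 when scaled over all probes, 2 with quantile normalisation, 3 with normexp, 3 with the software's summed signal and 0 at 2-fold. At 2-fold all 4 calls were lost. At 1.5-fold, miR-6366 lost its call with quantile normalisation, miR-5100 with quantile normalisation and scaling over all probes, and miR-212-3p with normexp, the summed signal and scaling over all probes. With the labels of palmitate and high glucose exchanged the counts were 11 higher and 0 lower. The authors' value table gave 21 higher and 8 lower of 211 (9.95% and 3.79%) for its palmitate column. The column that matches this array gave 5 higher and 10 lower of 201 (2.49% and 4.98%), a comparison added after seeing the data. Both counts rest on 1.5-fold alone, without the spot SE rule, over miRNAs above the column floors, so they are not like the counts above. The median over all miRNAs, -0.03, was 0.15 when scaled over all probes and -0.25 in the value table. Relative to that median, exchanged labels moved the list medians to 0.10 (inflammation), 0.23 (fibrosis), -0.10 (kidney), -0.13 (miR-99/100 and miR-125), -0.34 (miR-181) and -0.23 (muscle, neuron and hepatocyte). The value table moved them to 0.29 (fibrosis), 0.093 (ribosomal RNA precursor) and -0.21 (muscle, neuron and hepatocyte). The miR-181 list gave 0.060 with the software's detection call and 0 with no detection filter. The 0 is set by the floor, since undetected miRNAs take the floor of both arrays and so share a difference of 0.03. The floor enters the 0.060 too, since miR-181a-5p, miR-181c-5p and miR-181d-5p lay below the floor on both arrays. The cause of the other shifts was not tested. Over the settings that keep the array labels, including the matching table column, miR-6366 ran from -0.83 to 0, miR-5097 from -0.81 to -0.59, miR-212-3p from -0.90 to -0.32 and miR-5100 from -0.72 to -0.51. No paired analysis was possible because each group has 1 array. Signal over background limits miR-212-3p and the miRNAs detected on 1 array. It also limits miR-1897-5p, miR-3096a-5p, miR-301a-3p, miR-3096b-5p and miR-467f of the high side, whose control signals lay near the lowest detected one, 19.8. Over the settings that keep the array labels, miR-467f ran from -0.48 to 0.38.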
